A study of Mus musculus with 2 samples.

Results

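The genes described here are 31 genes of DNA break repair and of the DNA damage checkpoint, out of 31055 features listed for each library. They were taken by gene symbol, each symbol was listed exactly 1 time, and all 31 had UMIs in both libraries. By role they are 8 genes of homologous recombination, 4 of the Fanconi pathway, 3 of the break sensing complex, 6 of end joining, 5 of single-strand break repair and ligation, 1 of mismatch repair and 4 checkpoint kinases. These groups follow textbook roles, and some genes act in more than 1 of them.

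Single-cell RNA sequencing had been performed on medulloblastoma, a tumour of the cerebellum, from mice of the genotype Math1-Cre;SmoM2fl/fl. In these mice Cre recombinase driven by Math1, a gene of granule neuron progenitors, switches on an activated form of Smoothened, the signal transducer of the sonic hedgehog (SHH) pathway. Tumours in 1 group received standard proton irradiation and tumours in the other received FLASH proton irradiation, in which the dose is given at an ultra-high rate. Each group was 1 library. No unirradiated library was analysed here, so every value is from irradiated tumour. The dose is 5 Gy in the sample labels but 10 Gy in the design text. Time after irradiation, age and number of mice were not stated in the sources used here. With 1 library per group there is no replicate check and no test. All intervals are at 95% and cover the counting error of molecules only, so a difference between the libraries is a difference between these preparations.

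A break through both DNA strands can be rejoined end to end, which needs no template and works throughout the cell cycle, or copied from the sister chromatid by homologous recombination, which is available after replication. The Fanconi pathway repairs crosslinks between strands and protects stalled replication forks. The kinases Atm and Atr detect breaks and exposed single strands and activate Chek2 and Chek1, which slow the cell cycle. Granule neuron progenitors divide fast before they leave the cycle and become neurons.

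After filtering, 7888 cells of the standard library (median depth 5571 UMIs) and 9506 cells of the FLASH library (median depth 5212 UMIs) remained, with 21 cell barcodes in common. The level of a gene in a group of cells is its summed UMIs per 1000000 summed UMIs (CPM) of that group in that library. Cells were clustered without the 31 genes and without the other repair genes, and 6 tumour lineage states were named by marker genes and carry the suffix -like: S entry-like cells (405 in the standard and 437 in the FLASH library), histone-rich S-like cells (602 and 908), G2 and M-like cells (564 and 699), non-cycling progenitor-like cells (2023 and 2539), early neuron-like cells (868 and 977) and later neuron-like cells (850 and 1006). The first 2 states together are called S phase-like. Values over the 6 states are given below in this order. The summed level of the 12 SHH progenitor markers was 3182 and 3281 CPM in the progenitor-like cells of the 2 libraries against 1165 and 1163 CPM in later neuron-like cells. It was 3566 and 3614 CPM in S entry-like and 2007 and 2073 CPM in early neuron-like cells. The same markers were used to name the progenitor-like clusters against the neuron-like ones, so that difference is no independent support for the name. The 14 markers of S entry summed to 901 and 940 CPM in progenitor-like cells. They summed to 474 and 491 CPM in G2 and M-like and 167 and 177 CPM in later neuron-like cells. The name non-cycling means low cycle markers by the naming cutoffs, and cells in G1 of the cycle were not told apart from cells outside it. The progenitor-like state joins a cluster led by Hes1 and a cluster led by muscle contractile genes such as Mylpf, which held 8 and 6 of those markers at 2 times their level in the neuron-like cells or more. Early neuron markers were not lower in the later neuron-like cluster. Their mean log2 ratio over the other clusters was 1.81 there, with 8 markers at 2 times or more. In the early neuron-like cluster it was 1.16, with 7 markers. The names early and later rest on the later neuron markers and do not give an order in time. Lineage clusters 10 and 15, with 314 standard and 520 FLASH cells, and 1725 and 1764 shallow cells stayed unnamed. Tumour lineage below means the 6 states and those unnamed lineage clusters, 5626 and 7086 cells. Cluster 15, led by Ren1 and Meis2, held 45 standard and 175 FLASH cells. That was 0.80% (0.58 to 1.07) and 2.47% (2.12 to 2.86) of the tumour lineage, so its share differed between the libraries. Cluster 10 held 4.78% and 4.87%.

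Promoter sequences are shown first for 5 members, because replication-phase expression of many repair genes is known to be driven through E2F sites and the members differed in how closely they followed S phase. The sequences are from RefSeq on GRCm38.p6, run from 250 bases before to 50 bases after the start of transcription, and are written on the strand of the gene. Capitals mark an E2F motif, searched as TTCCCGC or TTGGCGC on both strands (GCGGGAA and GCGCCAA on the other strand). Other forms of the site were not searched.
Brca1 (chr11:101551906-101552205, strand -): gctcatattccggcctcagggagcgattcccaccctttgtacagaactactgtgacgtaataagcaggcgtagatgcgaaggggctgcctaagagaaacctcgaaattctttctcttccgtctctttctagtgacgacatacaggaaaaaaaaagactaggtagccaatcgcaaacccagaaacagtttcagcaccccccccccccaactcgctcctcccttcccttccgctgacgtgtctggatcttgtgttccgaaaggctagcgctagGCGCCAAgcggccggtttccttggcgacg
Rad51ap1 (chr6:126939538-126939837, strand -): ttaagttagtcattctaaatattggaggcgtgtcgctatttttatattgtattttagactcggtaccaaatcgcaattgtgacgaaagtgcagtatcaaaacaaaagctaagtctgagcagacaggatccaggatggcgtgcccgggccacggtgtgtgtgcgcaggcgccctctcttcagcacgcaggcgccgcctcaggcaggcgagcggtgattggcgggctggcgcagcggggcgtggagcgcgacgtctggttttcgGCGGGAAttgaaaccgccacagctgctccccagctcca
Chek1 (chr9:36726609-36726908, strand -): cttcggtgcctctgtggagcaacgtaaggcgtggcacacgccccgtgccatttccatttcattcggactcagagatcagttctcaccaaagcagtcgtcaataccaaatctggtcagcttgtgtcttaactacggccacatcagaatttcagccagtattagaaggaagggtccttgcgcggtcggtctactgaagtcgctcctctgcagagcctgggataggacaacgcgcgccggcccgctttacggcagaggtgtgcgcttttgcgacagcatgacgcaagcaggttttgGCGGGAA
Msh6 (chr17:87974800-87975099, strand +): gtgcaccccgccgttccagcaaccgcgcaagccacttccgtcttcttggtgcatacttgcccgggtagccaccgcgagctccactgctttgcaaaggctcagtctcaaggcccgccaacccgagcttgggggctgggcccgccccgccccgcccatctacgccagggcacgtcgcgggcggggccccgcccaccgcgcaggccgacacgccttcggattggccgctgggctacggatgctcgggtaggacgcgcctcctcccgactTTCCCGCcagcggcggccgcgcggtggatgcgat
Trp53bp1 (chr2:121271358-121271657, strand -): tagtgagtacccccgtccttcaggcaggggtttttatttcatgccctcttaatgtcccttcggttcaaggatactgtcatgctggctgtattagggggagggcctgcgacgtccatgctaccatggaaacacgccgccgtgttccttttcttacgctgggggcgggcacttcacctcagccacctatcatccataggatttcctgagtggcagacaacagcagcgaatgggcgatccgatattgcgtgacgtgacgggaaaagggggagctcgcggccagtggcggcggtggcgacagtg
Brca1, Rad51ap1, Chek1 and Msh6 each held 1 match, which began 21, 12, 43 and 16 bases after the start of transcription. Trp53bp1 held none. Of the 31 members 25 had a promoter entry, and Fancd2, Exo1, Xrcc2, Prkdc, Rad50 and Nbn did not. A match was found in 11 of the 25 (44%), against 7.79% of 27025 genes with an entry. The other members with a match were Brca2, Fanci, Xrcc4, Xrcc6, Lig1 (in 1 of its 3 entries), Atm and Chek2. The motif CCAAT, which can share bases with GCGCCAA, was found in 14 of the 25 (56%) against 41.1% of all genes. The cell cycle motif CHR (TTTGAA or TTCGAA) was found in 1 of the 25, Atr (4%), against 21.7% of all genes. A match describes these letters in this window and does not show that a factor was bound.

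The members split by pathway across the cell cycle. All 8 homologous recombination genes and all 4 Fanconi genes were at least 2 times higher in S phase-like than in non-cycling progenitor-like cells in both libraries, and none of the 6 end joining genes was. Over all members the count was 16 of 31, while 4.93% of 11124 genes with enough UMIs passed the same rule, and 0 members were at least 2 times lower, against 1.97%. In S entry-like cells alone the count was 17, with Msh6 added, against 4.11%, and in histone-rich S-like cells alone it was 15, without Mre11a, against 5.09%. The other 4 members past the rule were Mre11a, Lig1, Chek1 and Chek2. The median log2 ratio of the members was 1.19 in the standard and 1.09 in the FLASH library, against -0.046 and -0.052 for all genes. The state with the highest level was S entry-like for 22 members in the standard and 21 in the FLASH library, 19 of them in both, and it was the same state in both libraries for 25 members. Of those 19, only Msh6 and Atm had an interval clear of the next state in both libraries. All genes leaned the same way: 4700 of 9544 were higher in S entry-like than in histone-rich S-like cells in both libraries, by any amount. The same held for 22 of the 31 members, and 0 of them reached 2 times.

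**Figure D1:**
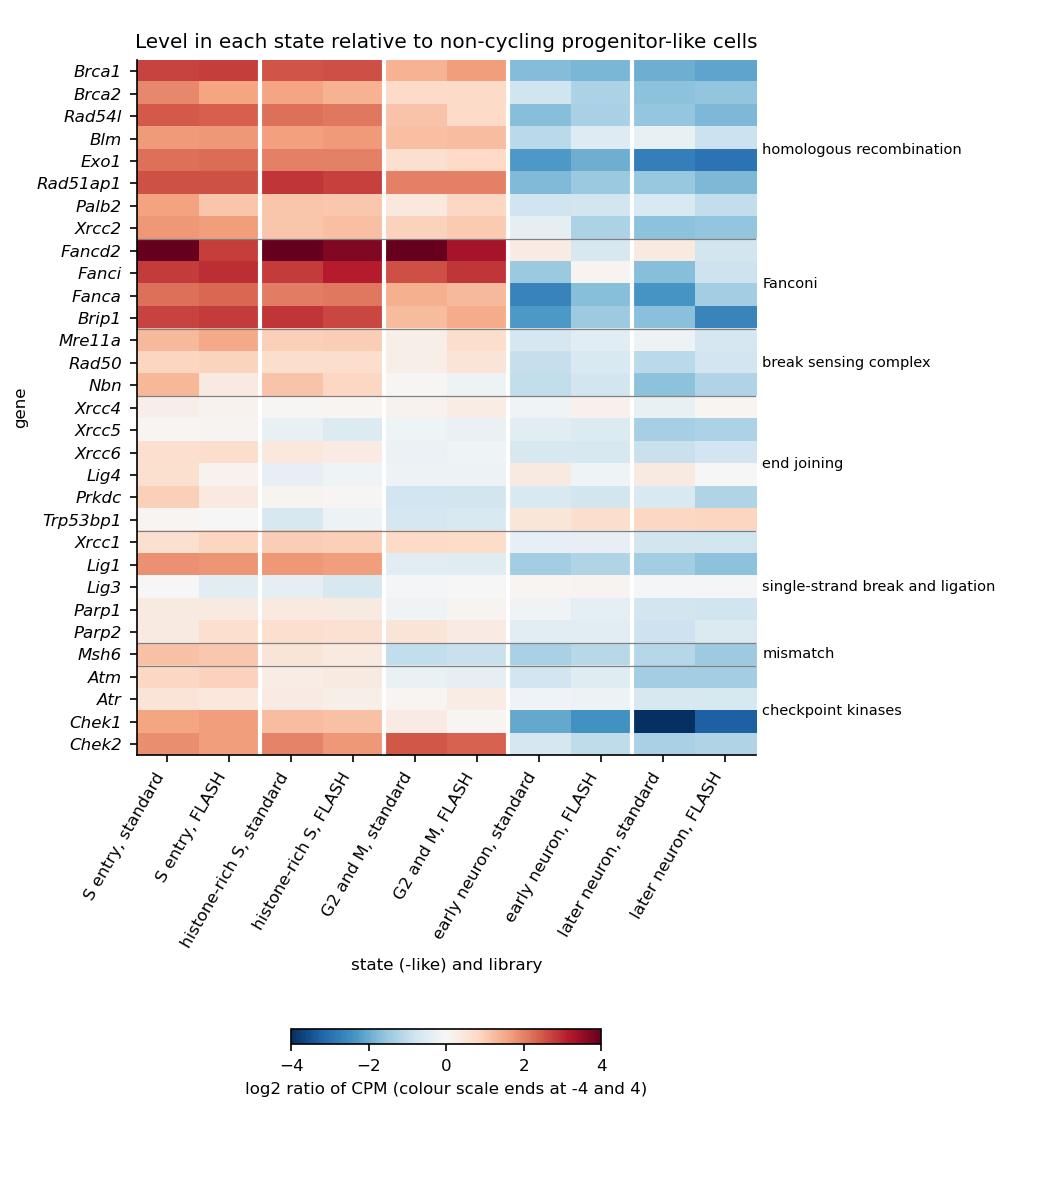
Colour gives the log2 ratio of CPM in each state over non-cycling progenitor-like cells for the 31 genes (rows, grouped by role), with the standard and the FLASH library side by side for each of 5 states. Homologous recombination and Fanconi genes are red in both S states, end joining genes are pale, and Chek1 has the deepest blue in later neuron-like cells.

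Homologous recombination genes were highest in the S states and lowest in the neuron-like states. Brca1, which promotes resection of the broken end, lies at chr11:101488764-101551955 (GRCm38, minus strand). Over the 6 states it had 143, 127, 57.6, 22.1, 6.53 and 5.55 CPM in the standard library and 141, 124, 65.7, 20.7, 5.78 and 4.72 CPM in the FLASH library. Both S states stood above the other 4 in both libraries with no overlap of the intervals, and the order of all 6 states was the same. Its log2 ratio of S phase-like over progenitor-like cells was 2.58 (2.39 to 2.77) and 2.64 (2.46 to 2.82) in the standard and FLASH library. Brca2, which acts on the single-stranded DNA left by resection, had 109.8, 85.9, 49.1, 29.04, 16.8 and 9.17 CPM in the standard library and 104, 91.3, 58.7, 34.7, 14.4 and 11.5 CPM in the FLASH library. Its ratio was smaller, 1.68 (1.505 to 1.86) and 1.45 (1.29 to 1.60), with the same order of states. Rad51ap1, which stimulates strand invasion, had 129, 161, 90.4, 22.3, 6.53 and 7.72 CPM in the standard library and 133, 152, 92.2, 22.9, 8.05 and 6.52 CPM in the FLASH library. It was the 1 member of this group that was highest in histone-rich S-like rather than S entry-like cells in both libraries, by log2 ratios of S entry over histone-rich S of -0.32 (-0.51 to -0.14) and -0.19 (-0.36 to -0.018).

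The other 5 genes of the group were likewise highest in S entry-like cells in both libraries. Exo1, the exonuclease of long resection, had 69.7, 60.4, 23.6, 15.1, 2.97 and 2.17 CPM in the standard library and 70.7, 60.1, 25.7, 14.9, 3.72 and 1.80 CPM in the FLASH library. Its level in later neuron-like cells was the lowest of its 6 states in both libraries, and its highest state stood 32.1 and 39.3 times above it. Rad54l, a motor protein that moves along DNA, was 4.90 and 4.57 times higher in S phase-like than in progenitor-like cells. The helicase Blm, which takes apart joined recombination intermediates, was 3.16 and 3.29 times higher. Xrcc2, another gene of this pathway, was 2.53 and 2.53 times higher, and Palb2, the bridge between Brca1 and Brca2, was 2.42 and 2.13 times higher with intervals of the log2 ratio that reached 0.83 and 0.71. In later neuron-like cells Blm had 19.5 and 13.9 CPM against 24.2 and 25.3 CPM in progenitor-like cells, and it was not among the members at least 2 times lower there.

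The share of cells with a UMI of this group was compared after each cell had been thinned to 2000 UMIs, which left out 33 S entry-like cells in each library and 46 and 55 later neuron-like cells. At least 1 UMI of the 8 genes was found in 69.4% (64.4 to 74.00) of S entry-like cells of the standard and 74.5% (69.96 to 78.7) of the FLASH library, against 18.4% and 20.2% of progenitor-like cells. In later neuron-like cells the shares were 9.45% and 9.04%. Myeloid cells, used here as a reference for low levels, gave 3.61% (1.67 to 6.75) and 5.90% (3.41 to 9.41) at the same depth. Free RNA and transcripts of the myeloid cells themselves were not told apart. Without thinning the shares were 94.3% and 93.4% in S entry-like, 21.2% and 17.8% in later neuron-like, and 17.6% and 18.2% in myeloid cells, whose median depths were 6868 and 6595, 4912 and 4296, and 6517 and 6146 UMIs.

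Fanconi genes had a larger median log2 ratio of S phase-like over progenitor-like cells than the homologous recombination genes, 2.79 and 2.90 against 1.88 and 1.90. Fancd2, which with Fanci forms the pair that the pathway marks with ubiquitin, lies at chr6:113531682-113597017 (plus strand) and had 18.1, 21.1, 22.6, 0.993, 1.19 and 1.21 CPM in the standard library and 13.99, 27.1, 20.4, 2.04, 1.24 and 1.12 CPM in the FLASH library. The first 3 states stood above the last 3 states in both libraries with no overlap, and the order among the first 3 differed between the libraries. Its log2 ratio of S phase-like over progenitor-like cells was 4.29 (3.53 to 5.28) and 3.51 (2.99 to 4.13), and that of G2 and M-like over progenitor-like cells was 4.46 (3.68 to 5.45) and 3.31 (2.75 to 3.95). The progenitor-like sums behind these ratios were 13 UMIs in the standard and 30 in the FLASH library. Fanci had 13.5, 13.3, 11.6, 1.91, 0.593 and 0.482 CPM in the standard library and 13.6, 15.9, 13.02, 1.77, 1.86 and 0.899 CPM in the FLASH library. This is the same split into the first 3 and the last 3 states. Brip1, a helicase that binds Brca1, had 46.99, 52.5, 17.3, 7.26, 1.38 and 2.17 CPM in the standard library and 53.8, 49.4, 21.5, 7.68, 2.68 and 1.12 CPM in the FLASH library. It differed from the Fancd2 and Fanci pair in G2 and M-like cells, where its level was below that of both S states in both libraries. Fanca, a subunit of the ubiquitin ligase, was 4.24 and 4.46 times higher in S phase-like and 2.68 and 2.47 times higher in G2 and M-like than in progenitor-like cells. After thinning, 0.595% and 1.63% of early neuron-like and 1.12% and 0.946% of later neuron-like cells held a UMI of these 4 genes, at or near the 1.20% and 1.11% of myeloid cells. Free RNA and expression cannot be told apart at these neuron levels, and no change between the neuron-like states is read from them.

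The break sensing complex of Mre11a, Rad50 and Nbn holds broken ends and recruits Atm. The log2 ratios of S phase-like over progenitor-like cells were 1.05 (0.81 to 1.30) and 1.14 (0.90 to 1.38) for the nuclease Mre11a, 0.74 (0.59 to 0.90) and 0.76 (0.62 to 0.90) for the ATPase Rad50 and 1.19 (0.93 to 1.45) and 0.72 (0.48 to 0.97) for Nbn. Mre11a passed 2 times in both libraries, Nbn in the standard library only and Rad50 in neither. Rad50 had 94.7, 84.6, 61.9, 52.4, 27.5 and 24.8 CPM in the standard library and 98.7, 87.3, 75.5, 53.3, 34.7 and 31.5 CPM in the FLASH library. Nbn, the subunit that binds Atm, had 38.5, 33.9, 15.97, 15.5, 7.71 and 4.82 CPM in the standard library and 22.2, 31.2, 14.99, 17.5, 10.3 and 7.42 CPM in the FLASH library. The libraries differed for Nbn in S entry-like cells, where the intervals were 31.3 to 46.8 CPM in the standard and 17.1 to 28.5 CPM in the FLASH library. Nbn was highest in S entry-like cells in the standard and in histone-rich S-like cells in the FLASH library, and the 2 S states overlapped in each.

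End joining genes did not reach 2 times in S phase-like cells, but were higher at S entry. Their summed level was 232 and 219 CPM in S entry-like against 189 and 190.1 CPM in progenitor-like cells, with intervals that did not overlap. All 6 were above their progenitor-like level there in both libraries, by any amount, as were 4635 of 10675 genes. In histone-rich S-like cells the sum was 163 and 166 CPM, below progenitor-like cells. There 3 of the 6 genes were below their progenitor-like level in both libraries, as were 5527 of 10945 genes. With both S states joined, the sum of the 6 genes was 185 and 180.1 CPM in S phase-like, 149 and 153 CPM in G2 and M-like, 189 and 190.1 CPM in progenitor-like and 179 and 173 CPM in later neuron-like cells of the standard and FLASH library. For the homologous recombination genes the same sums were 588 and 590.1, 316 and 344, 134 and 141, and 52.6 and 46.5 CPM. Behind the sum of the end joining genes stood members with opposite profiles. Xrcc5, a subunit of the Ku ring that caps broken ends, had 67.8, 51.6, 56.3, 63.96, 46.3 and 25.6 CPM in the standard library and 74.6, 47.1, 57.4, 69.02, 47.3 and 28.8 CPM in the FLASH library, lowest in later neuron-like cells in both libraries. Its partner Xrcc6 had 38.1, 32.5, 20.7, 24.2, 15.4 and 13.03 CPM in the standard library and 37.3, 28.8, 20.1, 22.9, 14.4 and 13.3 CPM in the FLASH library, highest in S entry-like cells. Trp53bp1, which limits resection and so favours end joining, lies at chr2:121193281-121271407 (minus strand) and had 61.6, 37.2, 36.5, 58.4, 81.1 and 104 CPM in the standard library and 53.1, 44.9, 34.5, 52.3, 84.6 and 95.05 CPM in the FLASH library. It was the 1 member that was highest in later neuron-like cells in both libraries, with log2 ratios over progenitor-like cells of 0.83 (0.66 to 1.005) and 0.86 (0.69 to 1.03), and lowest in G2 and M-like cells. Its early and later neuron-like intervals were apart in the standard and overlapped in the FLASH library.

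Among the remaining end joining genes, Prkdc, the kinase that Ku recruits, had 30.04, 16.96, 9.18, 15.7, 10.3 and 10.1 CPM in the standard library and 22.97, 18.1, 10.6, 17.7, 10.5 and 7.64 CPM in the FLASH library. It was low in G2 and M-like cells in both libraries, with ratios to progenitor-like cells of -0.77 (-1.24 to -0.34) and -0.73 (-1.14 to -0.36). Xrcc4, the scaffold of the final ligase, differed by 1.43 and 1.24 times between its highest and lowest state. Lig4, that ligase, differed by 1.98 and 1.27 times. For both, the intervals of S phase-like over progenitor-like cells, -0.22 to 0.40 and -0.21 to 0.37 for Xrcc4 and -0.38 to 0.44 and -0.44 to 0.24 for Lig4, lay inside a change of 1.5 times in each direction.

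**Figure D2:**
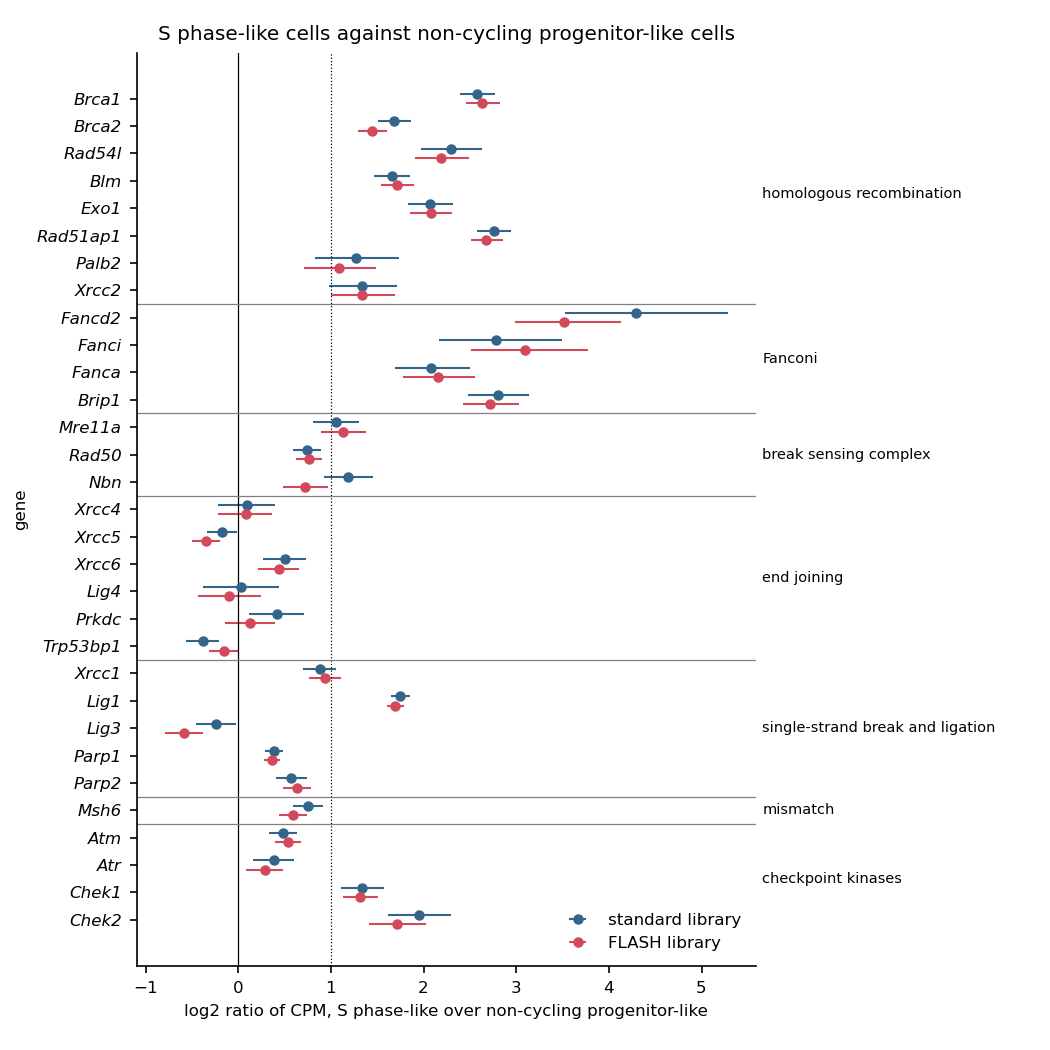
Points give the log2 ratio of CPM in S phase-like over non-cycling progenitor-like cells for each gene in the standard (blue) and FLASH (red) library, bars are 95% intervals of counting error, and the dotted line marks 2 times. The 12 homologous recombination and Fanconi genes lie right of the dotted line and the 6 end joining genes lie left of it.

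The 5 genes of single-strand break repair and ligation split by function. Lig1, which joins the fragments of the lagging strand at replication, had 330.5, 310.0, 70.02, 93.99, 35.8 and 35.5 CPM in the standard library and 326, 305, 69.2, 95.9, 41.9 and 30.3 CPM in the FLASH library. Both S states stood more than 3 times above every other state in both libraries, and G2 and M-like cells were below progenitor-like cells, by log2 ratios of -0.42 (-0.59 to -0.26) and -0.47 (-0.63 to -0.32). Lig3, the ligase that acts with Xrcc1 and in mitochondria, had 36.97, 29.4, 35.9, 37.4, 39.4 and 35.9 CPM in the standard library and 30.5, 26.3, 40.6, 41.2, 44.6 and 38.9 CPM in the FLASH library. It went the other way and was lower in S phase-like than in progenitor-like cells, with ratios of -0.24 (-0.46 to -0.019) and -0.59 (-0.79 to -0.38). Xrcc1, the scaffold of this repair, had 55.1, 69.9, 60.5, 35.5, 28.3 and 21.2 CPM in the standard library and 61.4, 66.5, 56.5, 34.03, 26.8 and 20.2 CPM in the FLASH library, with the first 3 states above the last 3. Parp1, the main sensor of nicks, had 181, 187, 128, 142, 127 and 85.9 CPM in the standard library and 183, 186, 155, 144, 109.8 and 82.7 CPM in the FLASH library. Both S states were above the rest for Parp1, by 1.31 and 1.29 times over progenitor-like cells, and 8 single cells with very high counts held part of its UMIs. Parp2, its smaller relative, was 1.49 and 1.55 times higher in S phase-like than in progenitor-like cells.

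Msh6, which recognises mismatches, was the mismatch repair member. It had 104, 65.6, 22.9, 46.00, 18.8 and 20.99 CPM in the standard library and 97.96, 60.2, 24.98, 46.7, 21.5 and 17.1 CPM in the FLASH library. S entry-like cells stood apart from histone-rich S-like cells with log2 ratios of 0.67 (0.43 to 0.89) and 0.70 (0.48 to 0.92), and G2 and M-like cells were below progenitor-like cells with ratios of -0.999 (-1.28 to -0.73) and -0.90 (-1.16 to -0.65). Msh6 thus went from its highest level at S entry to a level under that of non-cycling progenitor-like cells by G2 and M.

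The checkpoint kinases did not share a profile. Atm, the kinase that answers to broken ends, had 105, 72.9, 48.9, 59.4, 35.2 and 22.4 CPM in the standard library and 109.8, 74.2, 44.5, 57.6, 40.9 and 22.02 CPM in the FLASH library. Atr, which answers to exposed single strands, had 41.6, 35.8, 30.8, 28.9, 25.9 and 18.6 CPM in the standard library and 40.5, 35.3, 36.8, 30.1, 26.2 and 19.3 CPM in the FLASH library. Between the highest and the lowest state Atr differed by 2.24 and 2.10 times, and Atm by 4.69 and 4.99 times. Their target kinases varied more and peaked in different states. Chek1, the target of Atr, lies at chr9:36708482-36727065 (minus strand) and had 57.00, 44.7, 23.8, 19.2, 4.55 and 0.965 CPM in the standard library and 78.6, 55.96, 26.3, 24.8, 4.54 and 2.47 CPM in the FLASH library. It was highest in S entry-like cells, with an overlap with histone-rich S-like cells in the standard library, and lowest in later neuron-like cells: 4 UMIs were counted in the later neuron-like cells of the standard and 11 in those of the FLASH library. Chek2, the target of Atm, lies at chr5:110839979-110874145 (plus strand) and had 28.9, 31.7, 44.5, 7.95, 4.95 and 3.14 CPM in the standard library and 26.9, 28.2, 43.3, 8.49, 4.13 and 3.60 CPM in the FLASH library. It was the 1 member that was highest in G2 and M-like cells in both libraries, with no overlap with the next state, and its ratios to progenitor-like cells were 2.48 (2.15 to 2.83) and 2.35 (2.04 to 2.67). In G2 and M-like cells the Chek1 ratios to progenitor-like cells were 0.31 (0.0022 to 0.61) and 0.090 (-0.18 to 0.35). After thinning, 12.1% and 15.6% of S entry-like, 3.59% and 4.59% of progenitor-like and 0.124% and 0.210% of later neuron-like cells held a Chek1 UMI, where myeloid cells gave 1.61% and 0% (a count of 0 among 271 cells allows up to 1.11%). The later neuron-like shares rest on few UMIs, and free RNA and expression cannot be told apart there. Without thinning the S entry-like shares were 29.6% and 35.01%, and those of myeloid cells 2.99% and 3.77%.

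**Figure D3:**
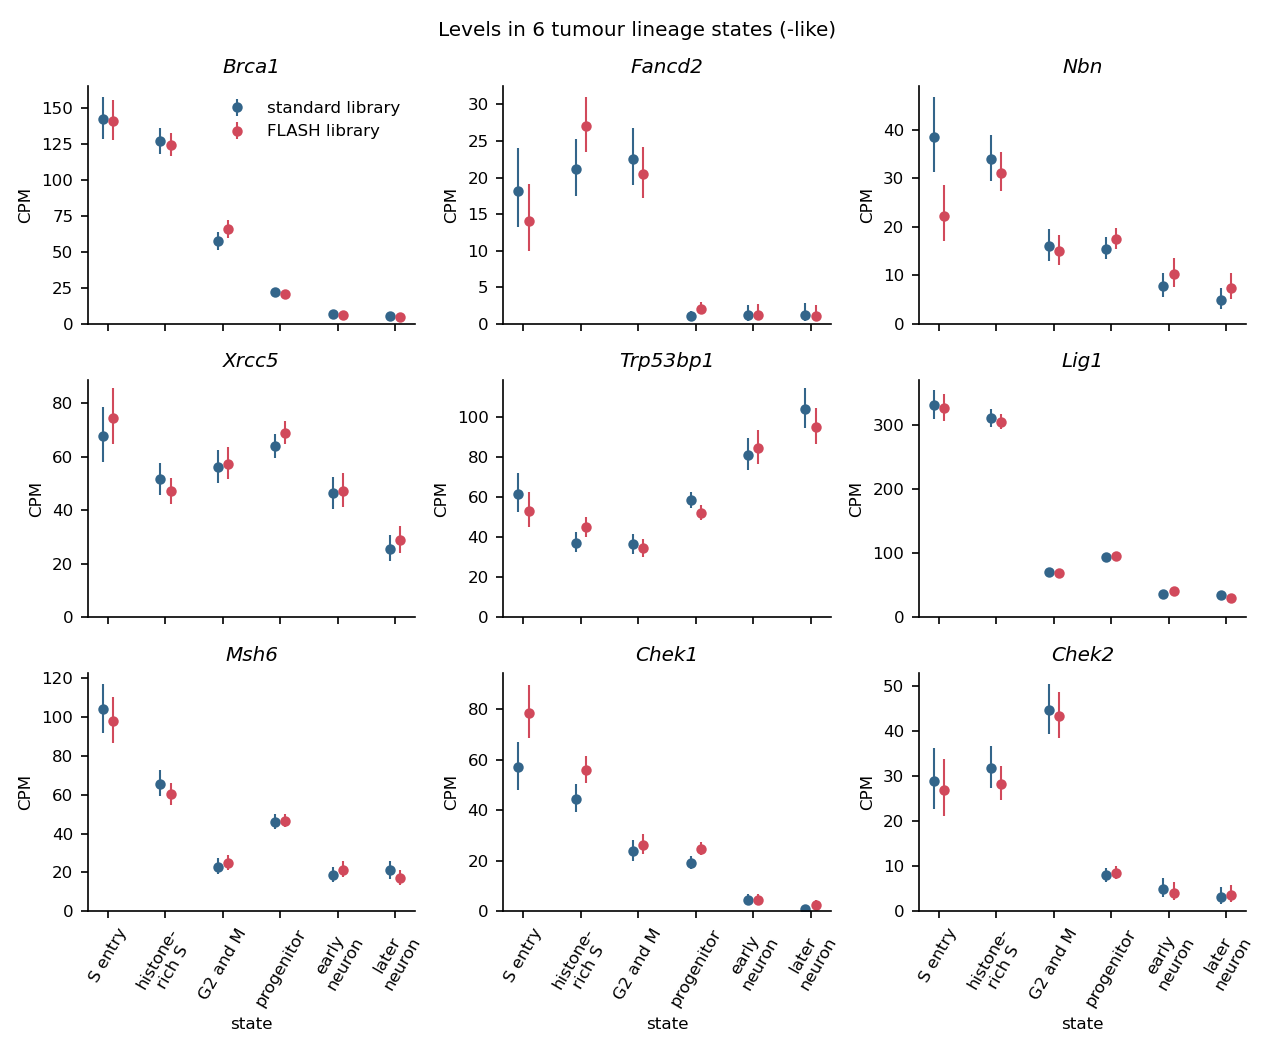
CPM of 9 members in the 6 states of the standard (blue) and FLASH (red) library, with 95% intervals of counting error and axes that start at 0. Brca1, Lig1, Msh6 and Chek1 are higher in the S states than in the neuron-like states, Chek2 is highest in G2 and M-like cells, and Trp53bp1 is highest in later neuron-like cells.

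Over all members, 8 of 31 were at least 2 times higher in G2 and M-like than in progenitor-like cells in both libraries, against 4.50% of 10886 genes, and 0 were at least 2 times lower, against 3.99%. The 8 were Brca1, Blm, Rad51ap1, the 4 Fanconi genes and Chek2. Below their progenitor-like level in both libraries, by any amount, were 9 members, namely Xrcc5, Xrcc6, Lig4, Prkdc, Trp53bp1, Lig1, Lig3, Msh6 and Atm, while 53.0% of all genes were below in both. Of the 6 end joining genes 5 were among the 9, and of the 12 homologous recombination and Fanconi genes 0 were. With a minimum of 200 genes per cell, which also gave no S entry-like cluster, Brca1, Brca2, Exo1 and Brip1 were below in the standard library and Brca2, Exo1, Fanca and Brip1 in the FLASH library. In later neuron-like cells 15 of 31 were at least 2 times lower than in progenitor-like cells in both libraries, against 11.1% of 10835 genes, and 0 were at least 2 times higher, against 10.5%. Fancd2 and Fanci had too few UMIs to enter this comparison. The 15 were 6 homologous recombination genes, 2 Fanconi genes, 3 checkpoint kinases, Nbn, Xrcc5, Lig1 and Msh6. In early neuron-like cells the count was 9 of 31, against 6.19% of 10806 genes (0 were higher, against 4.28%), so that Xrcc5 and Atm, among others, passed the rule in later but not in early neuron-like cells. The log2 ratio of later over early neuron-like cells was -0.85 (-1.20 to -0.52) and -0.71 (-1.04 to -0.40) for Xrcc5 and -0.65 (-1.03 to -0.28) and -0.89 (-1.26 to -0.54) for Atm. In this direct comparison 0 members were at least 2 times lower and 0 at least 2 times higher in both libraries. Of 9474 genes, 142 were lower and 269 higher by that rule. Later neuron-like cells were the lowest state of 17 members in both libraries. For some of these, such as Fanci and Chek1, the rank rests on few UMIs, and the share of all genes with this lowest state was not counted.

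The promoter motif was set beside these values. Of the 11 members with an E2F match 7 were at least 2 times higher in S phase-like cells in both libraries, and of the 14 members without a match 6 were. The median log2 ratios were 1.68 and 1.45 with a match and 0.73 and 0.79 without, in the standard and FLASH library. Rad54l, Blm, Palb2, Fanca, Brip1 and Mre11a passed the rule with no match in the window, and Xrcc4, Xrcc6, Msh6 and Atm had a match and did not pass it. Members with a CCAAT match passed in 9 of 14 cases and those without in 4 of 11.

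A list of 71 other genes of the same pathways was read in the same way. In S phase-like cells 24 of the 70 with enough UMIs were at least 2 times higher in both libraries and 0 lower, with medians of 0.62 and 0.58, and in G2 and M-like cells 15 were. Gen1, a nuclease that cuts recombination intermediates, had 32.2 and 38.3 CPM in S phase-like against 2.67 and 3.53 CPM in progenitor-like cells. Polq, the polymerase of the alternative end joining route, had 20.1 and 19.5 against 3.13 and 2.99 CPM, and the nuclease subunit Eme1 25.7 and 26.4 against 3.44 and 4.69 CPM. In G2 and M-like cells the phosphatase Cdc25c, which starts mitosis and is restrained by Chek1 and Chek2, had 52.9 and 52.7 CPM against 1.15 and 1.29 CPM, and H2afx, the histone that Atm marks at breaks, had 827 and 785 against 63.7 and 57.5 CPM. In later neuron-like cells 19 of 68 were at least 2 times lower and 1 was at least 2 times higher. Those lower included Rmi2, a partner of Blm, and Fancl, the ubiquitin ligase of the Fanconi pathway. Rmi2 had 0.965 and 0.449 CPM against 10.2 and 10.7 CPM in progenitor-like cells.

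Between the FLASH and the standard library, 1 of the 31 members, the kinase gene Chek1, stood apart by the size of its difference. In tumour lineage cells it was at least 25% higher in the FLASH library, as were 2.14% of 11896 genes, and 0 members were at least 20% lower (the same ratio inverted), against 2.57%. The member count of 1 is close to what the share over all genes gives. With 1 library per group no p-value stands behind these counts. The ratio of the FLASH to the standard library was above 0 on the log2 scale for 24 members and below 0 for 7. Of the 11896 genes, 6251 were above 0 and 5645 below. The median was 0.060 for the members against 0.00617 for all genes. S phase-like cells made up 17.9% of lineage cells in the standard and 18.98% in the FLASH library. They held 8373299 of 38512979 lineage UMIs in the standard and 10577921 of 44171042 in the FLASH library. The 2 S states moved in opposite directions: S entry-like cells were 7.20% and 6.17% of lineage cells, and histone-rich S-like cells 10.7% and 12.8%. With the lineage clusters held to the same mix in both libraries the median was 0.026.

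**Figure D4:**
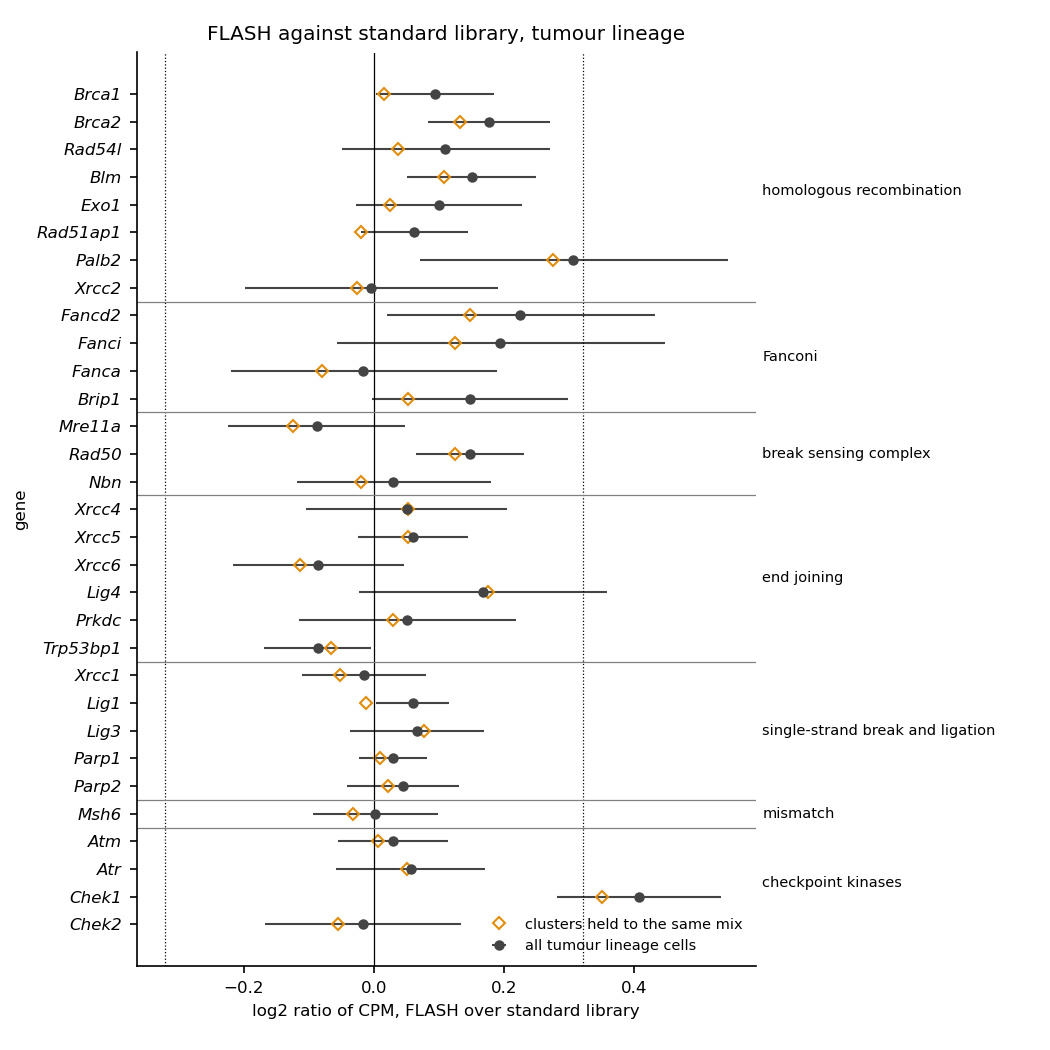
Filled points give the log2 ratio of CPM, FLASH over standard library, for each gene in tumour lineage cells, with 95% intervals of counting error, and open diamonds give it with the clusters held to the same mix. The dotted lines mark 25% higher and 20% lower, and Chek1 is the 1 gene past them.

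Chek1 had 22.04 CPM (20.6 to 23.6) in the standard and 29.2 CPM (27.7 to 30.9) in the FLASH library over all tumour lineage cells, a log2 ratio of 0.41 (0.28 to 0.53). The ratio was 0.35 with the same mix of clusters. It was above 0 in 5 of the 6 states: 0.46 (0.16 to 0.77) in S entry-like, 0.32 (0.100 to 0.55) in histone-rich S-like, 0.15 (-0.18 to 0.48) in G2 and M-like and 0.37 (0.13 to 0.61) in progenitor-like cells. In early and later neuron-like cells the intervals were -0.91 to 0.91 and -0.40 to 3.46. Without the 5 cells with most Chek1 UMIs in each library the ratio over the lineage was 0.41 (0.29 to 0.54). The 14 markers of S entry differed less: their summed level was 917 and 982 CPM over the lineage, a log2 ratio of 0.098, and 0.033 within S entry-like cells. All 10 oligodendrocyte markers had UMIs in tumour lineage cells, with a summed level of 294 and 357 CPM (log2 ratio 0.28). Chek1 itself stood at 3.53 and 3.72 CPM in the oligodendrocyte lineage-like cells, below its level in the lineage. The part of these marker differences in the Chek1 value was not tested, and irradiation mode, animals and library preparation cannot be told apart with 1 library per group.

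In the tumour lineage 8 of the 31 members, Chek1 among them, had an interval above 0, against 12.3% of all genes, and 1 had an interval below 0, against 10.3%. Palb2 had 6.57 and 8.13 CPM (0.31, 0.071 to 0.54), just under the rule of 25%, and Fancd2 had 8.83 and 10.3 CPM (0.23, 0.020 to 0.43). With cells thinned to 2000 UMIs in 1 random draw, the log2 ratios of Palb2 and Fancd2 were -0.012 and -0.0048. Fewer UMIs of each gene remain after thinning, so a loss of the difference cannot be told from counting error. Brca2 had 41.96 and 47.5 CPM (0.18, 0.083 to 0.27), Blm 37.9 and 42.1 CPM (0.15, 0.051 to 0.25), and Rad50 54.4 and 60.3 CPM (0.15, 0.065 to 0.23). Rad50 was the 1 member with a ratio above 0 in all 6 states, from 0.023 to 0.34. Brca1 (0.094) and Lig1 (0.060) came to 0.016 and -0.011 in the same mix of clusters. Trp53bp1 was the 1 member with an interval below 0, at -0.086 (-0.17 to -0.0041).

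Within the states, 186 pairs of a member and a state were compared, and the interval of FLASH over standard lay above 0 in 14 and below 0 in 4, over 11 members. Of all pairs of a gene and a state, 5.24% had an interval above 0 and 4.64% below 0. The largest difference in a state with over 50 UMIs in each library was that of Nbn in S entry-like cells, with 100 UMIs in the standard and 62 in the FLASH library. Its log2 ratio was -0.79 (-1.27 to -0.32) there and -0.82 (-1.34 to -0.31) without the 5 highest cells, while over the lineage it was 0.030 (-0.12 to 0.18). Mre11a, the partner of Nbn, was lower in the FLASH library in later neuron-like cells, with 15.7 and 9.89 CPM (-0.66, -1.25 to -0.091). No other state of Nbn or Mre11a had an interval that excluded 0. Higher in the FLASH library by this measure were Brca2 in G2 and M-like and progenitor-like cells, Blm in early neuron-like, Palb2 in G2 and M-like, Fancd2 in histone-rich S-like and progenitor-like, Rad50 in G2 and M-like and early neuron-like and Parp2 in S entry-like cells, with log2 ratios from 0.26 (Brca2, progenitor-like) to 1.01 (Fancd2, progenitor-like, 13 and 30 UMIs). Among the 70 other genes with enough UMIs, those with the largest differences in the lineage included Fancf, an adaptor of the Fanconi core complex, which was lower (11.1 and 8.13 CPM, -0.45), and Rad51b (0.30) and Eme1 (0.24), which were higher.

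**Figure D5:**
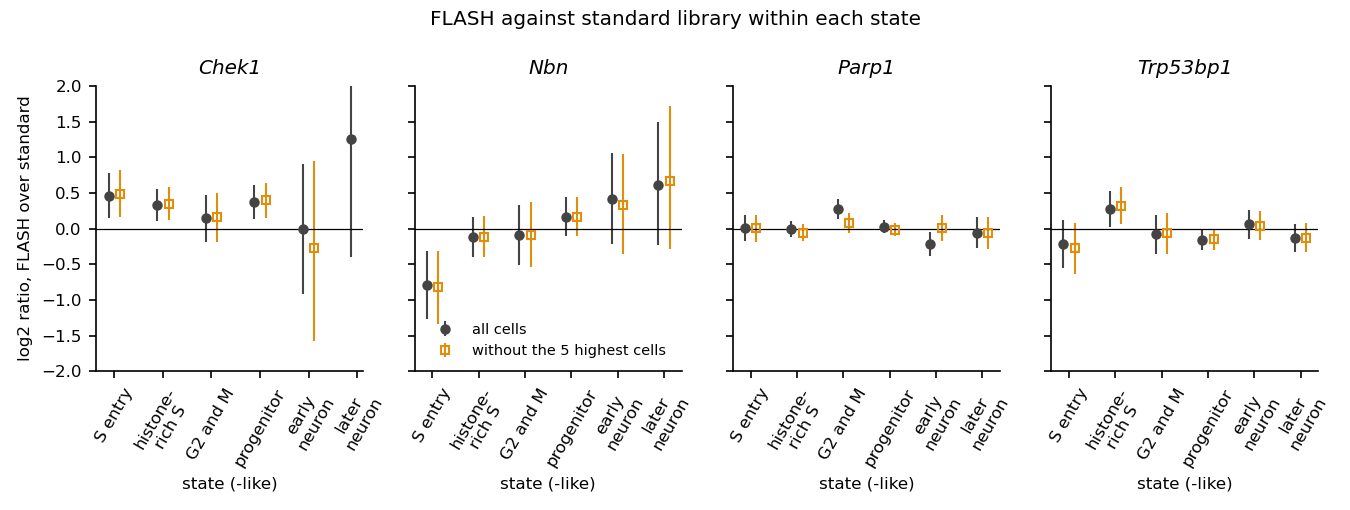
Log2 ratio of FLASH over standard library within each of the 6 states for Chek1, Nbn, Parp1 and Trp53bp1, over all cells (filled) and without the 5 cells with most UMIs of that gene in each library and state (open), with 95% intervals of counting error. Chek1 lies above 0 in the 4 states with the most UMIs, Nbn is low in S entry-like cells, and the Parp1 ratios come close to 0 without the highest cells. A Chek1 ratio in later neuron-like cells without the highest cells rests on too few UMIs and is not drawn.

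In myeloid and oligodendrocyte lineage-like cells the summed level of the members was lower than in the tumour lineage as a whole. The members were not summed in the other cell types outside the lineage. The sum of all 31 was 411 and 454 CPM in myeloid cells, 662 and 650.2 CPM in oligodendrocyte lineage-like cells, and 1118 and 1167 CPM in the tumour lineage. Within the lineage it ran from 1989.5 and 1979.8 CPM in S phase-like to 553 and 543 CPM in later neuron-like cells. Parp1 alone supplied 71.7 and 78.00 CPM of the myeloid sum. Chek2 in myeloid cells, at 16.5 and 18.1 CPM, was close to its tumour lineage level of 17.7 and 17.5 CPM and above that of progenitor-like cells. Of the 31 genes 13 overlap a gene on the other strand, and since no source used here states whether the counting used strand, reads from such pairs cannot be told apart, as for Fancd2 with Fancd2os, Fanci with Polg and Trp53bp1 with Tubgcp4.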

How the data were processed

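The deposited files were matrices of raw UMI counts per gene and cell barcode, whole numbers that the authors made with Cell Ranger (version 6.1.2 per the file headers, reference mm10 per the submitters' processing notes). The annotation release was not stated in the sources used here, and gene positions are from GENCODE release M21 (31 of 31 members matched by ID). Barcodes with at least 500 genes and at most 10% mitochondrial UMIs were kept. The standard library had 12867 barcodes with 55532202 UMIs and the FLASH library 14269 with 63178900, and 8461 and 10366 barcodes passed. The automatic cutoff of Scrublet marked 0 cells in each, so the highest scores were removed at 0.8% per 1000 cells (573 and 860 cells).

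After scaling each cell to 10000 counts and taking logs, 2000 variable genes, without the members and other repair genes, gave 30 principal components, 15 neighbours and Leiden clusters at resolution 1.0 (scanpy 1.11.5, leidenalg 0.10.2). States were named from marker lists by cutoffs that were set after seeing the data. UMIs were summed per state and library, and ratios were taken after adding 0.5 count. Intervals are exact Poisson for CPM, exact conditional binomial for ratios and exact Clopper-Pearson for shares, at 95%, and cover counting error only. Where a count is 0, 3 counts are the limit it allows. Genes with at least 100 UMIs over the groups compared formed the background. No test between groups was possible. Ratios and intervals were checked on simulated counts.

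All members are described. Of the other repair genes in a fixed list (73, of which 71 were found), the 4 with the largest absolute ratio per comparison could be named, and some are not reported here. The members, lists and tests were chosen with earlier results of these data known, so they are no independent support for a pattern. Alternatives covered the cell filters, doublets, clustering, scaling, depth, the highest cells, the fold and the mix of clusters. Those on the progenitor reference and the unnamed clusters, and the removal of the highest cells within each state, were chosen after seeing the data.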

Additional observations from a re-analysis of the deposited data

Results flagged for a closer look

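For 2 members the FLASH to standard log2 ratio had an interval above 0 in 1 state and below 0 in another, and the difference between the states was not tested. Trp53bp1 was at 0.27 (0.022 to 0.52) in histone-rich S-like and at -0.16 (-0.30 to -0.012) in non-cycling progenitor-like cells. Parp1 was at 0.27 (0.14 to 0.41) in G2 and M-like and at -0.21 (-0.38 to -0.044) in early neuron-like cells. Without the 5 cells with most Parp1 UMIs in each library and state these came to 0.079 (-0.065 to 0.22) and 0.011 (-0.17 to 0.19), and the Trp53bp1 values were 0.32 and -0.15.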

How the results depend on the processing

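The count of 16 members higher in S phase-like cells lay between 12 and 20 over 15 alternatives, and the median log2 ratio of FLASH over standard (0.060) between 0.026 and 0.075 over 14. The count of members at least 25% higher in the FLASH library, 1 as reported, was 2 with at least 200 genes, with at most 5% mitochondrial UMIs, at resolution 1.5, with each library clustered by itself and without the 5 highest cells, and 0 at 1.5 times. The count lower, 0 as reported, was 1 with cells thinned to 2000 UMIs. The log2 ratio of Chek1 lay between 0.34 and 0.42 over 14 alternatives. The count higher in G2 and M-like cells, 8 as reported, was 3 with at least 200 genes, 3 at resolution 0.6 and 13 at 1.5 times. The count lower in later neuron-like cells, 15 as reported, was 8 with at least 1000 genes, 9 with each library clustered by itself and 23 at 1.5 times. With at least 200 genes the log2 ratio of G2 and M-like over progenitor-like cells turned to -0.17 for Brca1 and -0.34 for Brip1 in the standard library and to -0.043 for Fanca and -0.053 for Brip1 in the FLASH library, and the cause was not tested. With that filter no S entry-like cluster was found. Of the values of single genes, 419 moved by more than their interval, 4 of at least 2 times turned their direction and 2615 did neither. Counted at any size, 148 of the 3038 values were on the other side of 0, 67 of them for G2 and M-like over progenitor-like cells, where the lowest were -1.18 for Exo1 (standard) and -0.54 for Chek1 (FLASH), both with at least 200 genes. Low sums in neuron-like cells limit what can be read there. No paired analysis was possible because each group was 1 library.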

Other observations

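Parp1 counts had a tail of a few cells. Among 17394 kept cells, 8 held between 27 and 79 Parp1 UMIs, and the next highest cell held 12. There were 3 such cells in the standard library, with 40, 64 and 71 UMIs, and 5 in the FLASH library, with 27, 51, 61, 64 and 79 UMIs. They were spread over early neuron-like, progenitor-like, histone-rich S-like, G2 and M-like and unnamed lineage cells, and their total depth was between 5872 and 24502 UMIs. Together they held 3.45% of all Parp1 UMIs. Among the other 30 members the highest count in any kept cell was 20, for Lig1. A barcode of the FLASH library that was removed as a predicted doublet held 25 Chek2 UMIs, while no kept cell held more than 5. This tail was noticed after the values were seen, and what sets it apart was not tested.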
